A study of Homo sapiens with 27 samples.

Results

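The collagen genes encode the chains of a family of extracellular matrix proteins that wind 3 chains into a triple helix. They were taken as every protein-coding gene whose symbol reads COL, a number, A and a number, matched by Ensembl identifier, which gave 44 genes. All 44 were listed in the table of the shRNA libraries and 43 in that of the siRNA libraries, where COL6A5 was not listed. A gene was tested in a table when its mean normalized count there was at least 10. The shRNA table had 19068 tested genes, of which 30 were collagen genes. The siRNA table had 16750, of which 22 were collagen genes, all of them among the 30. A further 14 were tested in neither table, among them COL1A2, COL3A1 and COL5A3, with means of 1.36 to 8.67 in the shRNA table.

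Collagen chains are folded and hydroxylated in the endoplasmic reticulum, secreted, trimmed by proteases and cross-linked by lysyl oxidases. Fibrillar collagens build the fibers of connective tissue, type IV collagen builds the sheet of the basement membrane, and fibril-associated collagens (FACITs) sit on the surface of fibers. In tissue, fibroblasts make most fibrillar collagen, while epithelial and endothelial cells make much of the type IV collagen. SHP77 is an established human small cell lung cancer line of the neuroendocrine type.

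RNA was sequenced in 17 libraries of SHP77. Cells of the first 6 carried a stable shRNA after puromycin at 3 µg/mL for 3 days or longer: shGFP as the control, circRMST shRNA 1 or circRMST shRNA 2, with 2 libraries each. The other 11 came from cells collected 72 hours after siRNA transfection: si-control (3 libraries), SOX2 siRNA 1, SOX2 siRNA 2, NKX2-1 siRNA 1 and NKX2-1 siRNA 2 (2 each). circRMST is a circular RNA of the RMST gene, and SOX2 and NKX2-1 are transcription factors that, per the series design, bind it. The shRNA libraries were made with a stranded total RNA kit and the siRNA libraries with a poly(A) kit, and each set was normalized on its own, so levels were tested only within a table. The series calls its replicates biological, but no label ties them to separate cultures, and p-values measure the spread between these libraries only. In bulk RNA, fewer cells of a kind and less RNA per cell cannot be told apart. All cells were of 1 line.

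Depth was 46.9 to 57.4 megareads (recovered reads) in the shRNA libraries and 15.5 to 50.1 megareads in the siRNA libraries. SOX2 fell 2.70-fold with its siRNAs (limma adjusted p = 9.9e-19) and NKX2-1 fell 2.45-fold with its own (limma adjusted p = 1.3e-17). The table counts RMST by gene and does not separate the circle from the linear RNA, so it does not check the circRMST knockdown. All 8 neuroendocrine markers reached a mean of 10 in both tables. Of 10 fibroblast markers, 7 did so among the shRNA libraries and 5 among the siRNA libraries. In si-control the fibroblast markers PDGFRB averaged 0 and DCN, THY1 and FBLN1 averaged 0.88, 0.47 and 0.47, whereas in shGFP they averaged 22.1, 27.2, 17.3 and 49.3. The markers' levels by group are given after the collagen results.

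The shGFP libraries differed from the rest in genes with few reads, which matters for the collagen genes because many were low. There were 1548 protein-coding genes with 0 reads in all 11 siRNA libraries. Of these, 82.4% and 85.6% were detected in shGFP replicates 1 and 2, and 14.7% to 20.5% in the libraries of the circRMST shRNAs. Of these silent genes, 99% had an shGFP mean of at most 43.2 normalized counts, although a single gene reached 1237. The shGFP mean of 12 of the 30 tested collagen genes lay within that 43.2. All 14 collagen genes under the mean of 10 in the shRNA table also had a higher mean in shGFP than with the circRMST shRNAs.

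The sequences that follow belong to 2 patterns among the members. One is a type IV pair whose starts face away from 1 short gap. The other is the fibrillar genes COL27A1, which was called lower in all 3 knockdowns, and COL5A1, whose direction differed between them. The mean needed for a test fixed the direction of COL27A1 in each knockdown and of COL5A1 with the circRMST shRNAs. The sequences are from RefSeq, build GRCh38.p14, plus strand, and 32 of the 44 collagen genes matched its promoter table. COL4A1 and COL4A2 lie head to head with 126 bases between their starts (chr13:110307158-110307283). The 250 bases before the COL27A1 start are chr9:114155287-114155536 and those before the COL5A1 start are chr9:134641553-134641802. The COL27A1 window lies inside the RefSeq span of the gene, whose outer edge is upstream of this start. Capitals mark a CCAAT box and a GC box (GGGCGG) in the type IV gap and a match to ACAANG in COL27A1. ACAANG is a loose pattern for the SOX core motif, in which N is any base. In the COL27A1 match N is G, so it is a match to the loose pattern only.
COL4A1 and COL4A2, between the starts: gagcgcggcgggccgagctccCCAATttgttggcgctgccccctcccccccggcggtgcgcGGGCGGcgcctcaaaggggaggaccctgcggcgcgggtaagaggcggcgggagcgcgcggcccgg
COL27A1, upstream: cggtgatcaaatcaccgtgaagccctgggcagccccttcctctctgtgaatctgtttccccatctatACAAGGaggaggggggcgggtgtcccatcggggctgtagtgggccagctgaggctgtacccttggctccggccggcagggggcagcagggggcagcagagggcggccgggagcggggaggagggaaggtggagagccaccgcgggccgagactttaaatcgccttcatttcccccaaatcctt
COL5A1, upstream: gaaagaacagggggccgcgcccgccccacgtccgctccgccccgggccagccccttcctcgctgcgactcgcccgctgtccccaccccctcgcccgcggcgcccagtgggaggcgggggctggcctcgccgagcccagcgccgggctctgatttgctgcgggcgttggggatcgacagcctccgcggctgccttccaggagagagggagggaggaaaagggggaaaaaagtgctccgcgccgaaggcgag

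On both strands, the type IV gap held 1 CCAAT, 1 GGGCGG and no match to ACAANG or to CTCAAG, the NKX2-1 core motif. The COL27A1 window held 1 ACAANG match and no CTCAAG, and the COL5A1 window held neither. Among 27305 promoters cut to 250 bases, 31.1% held ACAANG, 10.4% CTCAAG, 33.0% CCAAT and 42.3% GGGCGG. Cut to 126 bases, 21.9% held CCAAT and 34.6% GGGCGG. Of the 32 collagen promoters, 5 held ACAANG, 3 CTCAAG, 9 CCAAT and 18 GGGCGG. These matches describe the letters only, since no binding data were used here.

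With the circRMST shRNAs, a few collagen genes rose and more fell, among them COL22A1, which was at 5702 in shGFP, and genes that were nearly without reads after the knockdown. COL14A1, a FACIT, rose 9.72-fold, and both chains of the main type IV collagen rose, COL4A2 2.73-fold and COL4A1 1.81-fold. The fibrillar genes COL27A1 and COL5A1, the beaded-filament gene COL6A2 and the FACIT gene COL20A1 fell 12.8- to 21.3-fold on the log2(normalized count + 1) scale used for all fold changes. In limma (adjusted p under 0.05, Benjamini-Hochberg over all genes tested), 6 of 30 collagen genes rose, where 27.8% of all genes rose, and 18 fell, where 25.9% of all genes fell. The median change of the 30 was -1.20, beside 0.00 for all genes tested. With libraries scaled to equal totals the median of all genes moved to -0.15 and that of the collagen genes to -1.34, and over all genes 3635 were higher and 6589 lower, against 5294 and 4936 as reported.

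These counts lean on low genes and on the 2 shGFP libraries. Of the 18 that fell, 9 had a mean under 10 with the circRMST shRNAs and so were tested only because of shGFP, which fixes their direction. Among the 13 collagen genes with a mean of at least 50, 6 rose, 5 fell and the median change was 0.17. Of all 13722 genes with such a mean, 5085 rose and 3563 fell, with a median of 0.08. Without shGFP replicate 1, 25 collagen genes were tested, with a median change of -0.81, beside 0.02 for all genes. Without shGFP replicate 2, 27 were tested, with a median of -1.14, beside 0.02 for all genes. In both of these fits, fewer collagen genes and fewer of all genes fell than with all shRNA libraries. Set against the silent genes, 7 of the 18 had an shGFP mean within 43.2, and another 3 (COL9A2, COL6A3 and COL1A1) lost no more than the 38.7 normalized counts that 99% of the silent genes lost. The other 8, COL22A1, COL9A3, COL20A1, COL18A1, COL7A1, COL5A1, COL27A1 and COL6A2, were past both limits, although COL5A1, COL27A1 and COL6A2 are among the 9 tested only because of shGFP.

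**Figure D1:**
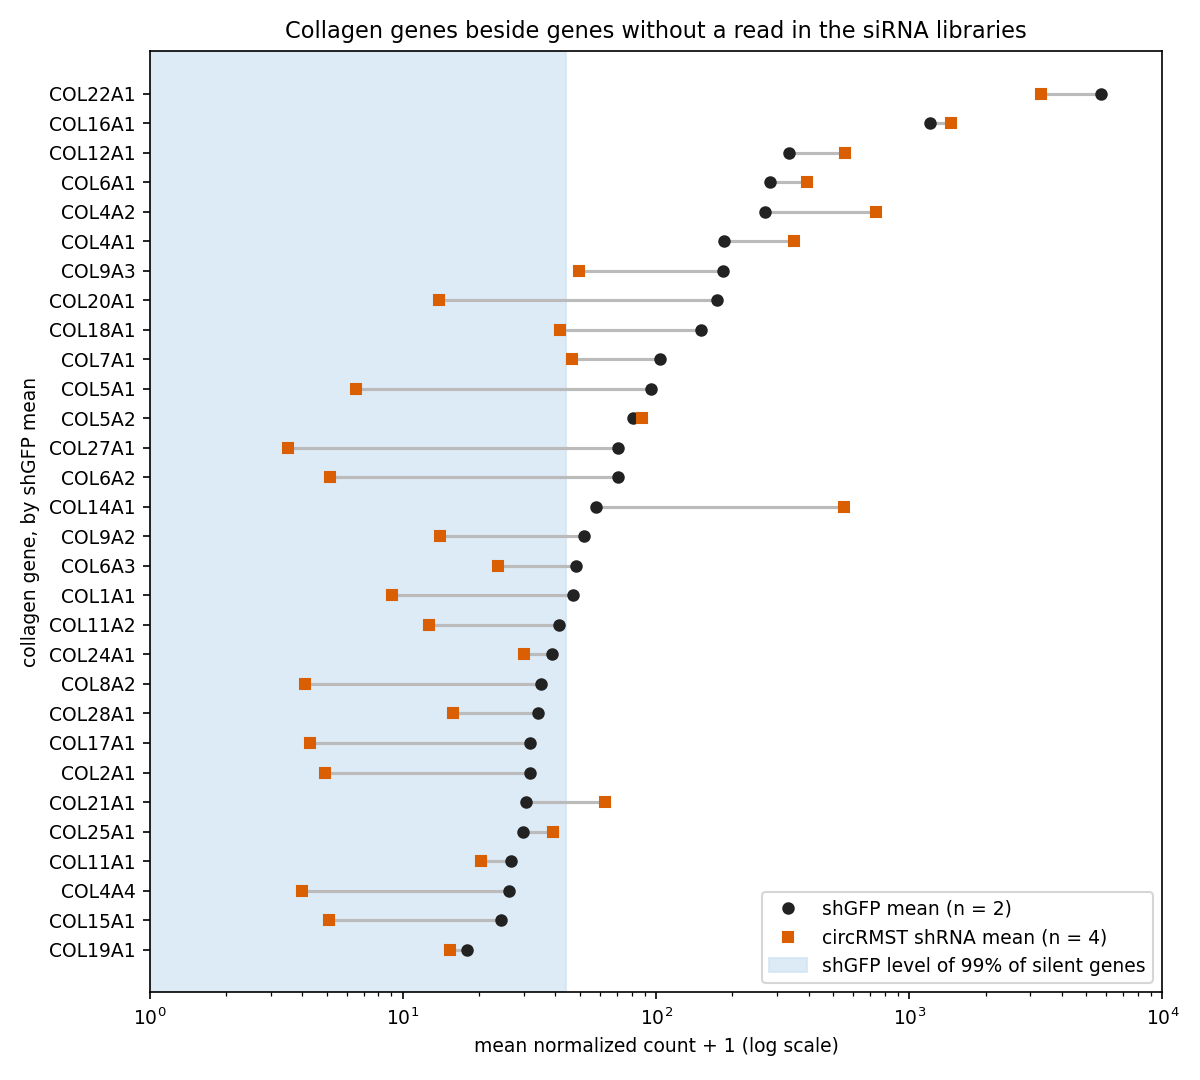
Mean normalized count plus 1 (log axis) of the 30 collagen genes tested in the shRNA table, as circles for shGFP (n = 2) and squares for both circRMST shRNAs (n = 4); the shaded band ends at the shGFP level that 99% of the silent genes do not exceed, 43.2. The circles of 12 genes lie in the band, and COL14A1 and COL4A2 show squares far to the right of their circles.

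COL14A1, a FACIT that binds collagen fibrils, was at 67.8 and 45.6 in shGFP, 559 and 552 with shRNA 1 and 549 and 538 with shRNA 2. The 4 knockdown libraries lay close together and far above both controls (log2 3.28, SE 0.15, limma adjusted p = 1.1e-14). COL12A1, another FACIT of fibril surfaces, was at 312 and 352 in shGFP, 551 and 519 with shRNA 1 and 570 and 574 with shRNA 2, and rose by 0.74 (SE 0.10, limma adjusted p = 1.7e-06). COL14A1, COL12A1, COL4A1 and COL4A2 were the 4 that rose on average and with each shRNA alone, a rule that 19.6% of all genes met in this direction. COL21A1, a further FACIT, rose by 0.98 on average, from 30.8 and 28.5 to 44.4 to 85.9, but shRNA 2 alone gave an adjusted p of 0.158 in limma.

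COL22A1, a FACIT of tissue junctions, was at 5737 and 5667 in shGFP, 3889 and 3956 with shRNA 1 and 2703 and 2639 with shRNA 2. The groups did not overlap, and it fell by 0.82 (SE 0.05, limma adjusted p = 5.2e-12). COL16A1, also a FACIT, went to opposite sides of its control. It was at 1297 and 1111 in shGFP, 2039 and 2011 with shRNA 1 and 966 and 845 with shRNA 2, so shRNA 1 gave 0.75 and shRNA 2 gave -0.41 (limma adjusted p = 2.1e-07 and 0.00061). The average of 0.17 did not pass (limma adjusted p = 0.0662), but did without shGFP replicate 1 (0.28, limma adjusted p = 0.0192) and without shRNA 2 replicate 2 (0.22, limma adjusted p = 0.0307). COL20A1 was at 246 and 98.7 in shGFP and at 20.9, 4.9, 8.3 and 17.6 in the knockdown libraries. Its controls lay far apart from each other, and both were above every knockdown library (log2 -3.68, SE 0.49, limma adjusted p = 1.0e-06). The FACIT list as a whole held 3 genes that rose, 4 that fell and 2 that passed in neither direction, where 27.8% of all genes rose and 25.9% fell.

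Of 8 fibrillar genes tested, none rose and 5 fell, where 27.8% of all genes rose and 25.9% fell. Of the 5, COL27A1, COL5A1, COL1A1 and COL2A1 passed the filter only through shGFP, so their direction was fixed by it. COL27A1, a fibrillar chain of cartilage, was at 78.1 and 61.7 in shGFP, 4.2 and 1.0 with shRNA 1 and 1.8 and 3.1 with shRNA 2. That is 76 and 65 recovered reads in the controls against 1 to 4 in each knockdown library, and the groups lay far apart (log2 -4.41, SE 0.65, limma adjusted p = 5.0e-06). COL5A1, a chain that seeds type I fibrils, was at 110 and 79.7 in shGFP, 10.5 and 2.0 with shRNA 1 and 5.5 and 4.1 with shRNA 2 (log2 -4.03, SE 0.56, limma adjusted p = 2.2e-06). COL5A2, whose chain joins that of COL5A1 in a trimer, was at 73.0 and 87.3 in shGFP and at 73.5 to 102 in the knockdown libraries, with overlap (limma adjusted p = 0.722). These partners in type V collagen gave -4.03 and 0.11 in the same libraries.

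COL1A1, a chain of type I collagen, was at 67.8 and 23.7 in shGFP, 6.3 and 16.6 with shRNA 1 and 9.2 and 0.0 with shRNA 2. It fell by 2.78 (limma adjusted p = 0.0034), but not without shGFP replicate 1 (limma adjusted p = 0.166), and its partner COL1A2 was under the mean of 10. COL2A1, the cartilage collagen, was at 34.9 and 26.6 in shGFP and at 1.0 to 6.2 in the knockdown libraries, and COL11A2 was at 45.2 and 35.1 against 5.2 to 17.6. Both fell (-2.84 and -1.84), and the shGFP mean of each was within the silent-gene limit of 43.2. COL11A2 lost its call without shGFP replicate 1 (limma adjusted p = 0.0894). COL11A1, whose chain shares a trimer with that of COL11A2, was at 26.7 and 24.7 in shGFP and at 15.7, 28.4, 24.8 and 8.3 with the shRNAs, and neither it nor COL24A1 passed (-0.53 and -0.44).

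Type VI collagen is built from the chains of COL6A1, COL6A2 and COL6A3, and these genes diverged. COL6A1 was at 293 and 271 in shGFP, 499 and 465 with shRNA 1 and 310 and 303 with shRNA 2. It rose by 0.45 on average (SE 0.11, limma adjusted p = 0.0019), with shRNA 1 alone at 0.77 and shRNA 2 alone at 0.12. COL6A2 was at 77.1 and 61.7 in shGFP and at 4.2, 6.8, 5.5 and 0.0 in the knockdown libraries (log2 -4.12, SE 0.69, limma adjusted p = 2.4e-05). The same gene had 9 reads over all 11 siRNA libraries. COL6A3 was at 45.2 and 49.4 against 28.3, 28.4, 26.6 and 7.2, and its fall of 1.20 (limma adjusted p = 0.0233) lost its call without either shGFP library (limma adjusted p = 0.102 and 0.150) or without shRNA 2 replicate 2 (0.0779).

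Type IX collagen, a FACIT of cartilage fibrils, was tested for COL9A2 and COL9A3. COL9A3 was at 226 and 138 in shGFP, 51.3 and 90.0 with shRNA 1 and 18.4 and 34.1 with shRNA 2, and fell by 2.06 (SE 0.30, limma adjusted p = 3.4e-06). It overlaps the protein-coding gene TCFL5, with which it could share reads. COL9A2 was at 47.3 and 54.1 in shGFP, 3.1 and 8.8 with shRNA 1 and 19.3 and 20.7 with shRNA 2, and fell by 2.16 (limma adjusted p = 0.00048). The chains were ordered oppositely by the shRNAs: COL9A3 was lower with shRNA 2 and COL9A2 with shRNA 1.

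Among the remaining classes, COL18A1, a basement-membrane multiplexin that yields endostatin, was at 159 and 140 in shGFP and at 33.1 to 56.6 with the shRNAs. It fell by 1.88 (SE 0.26, limma adjusted p = 2.3e-06), and it overlaps the protein-coding gene SLC19A1. COL7A1, the anchoring-fibril collagen of skin, was at 112 and 94.0 in shGFP and at 29.3 to 54.5 with the shRNAs, a fall of 1.20 (limma adjusted p = 0.0010). The short-chain gene COL8A2 (39.0 and 29.4 in shGFP, 0.0 to 7.2 with the shRNAs), the hemidesmosome collagen COL17A1 (36.0 and 25.6, 0.0 to 8.3) and the multiplexin COL15A1 (28.8 and 18.0, 1.0 to 7.4) fell as well. All 6 of these shGFP values were within the silent-gene limit of 43.2. COL28A1 was at 34.9 and 31.3 against 10.5 to 19.3, and its fall of 1.15 (limma adjusted p = 0.0295) lost its call without either shGFP library (limma adjusted p = 0.171 and 0.103) or without shRNA 1 replicate 1 (0.0526). COL25A1 did not pass (0.49), and its controls stood at 11.3 and 46.5. Without the second of them it rose by 1.47 (limma adjusted p = 0.0255).

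**Figure D2:**
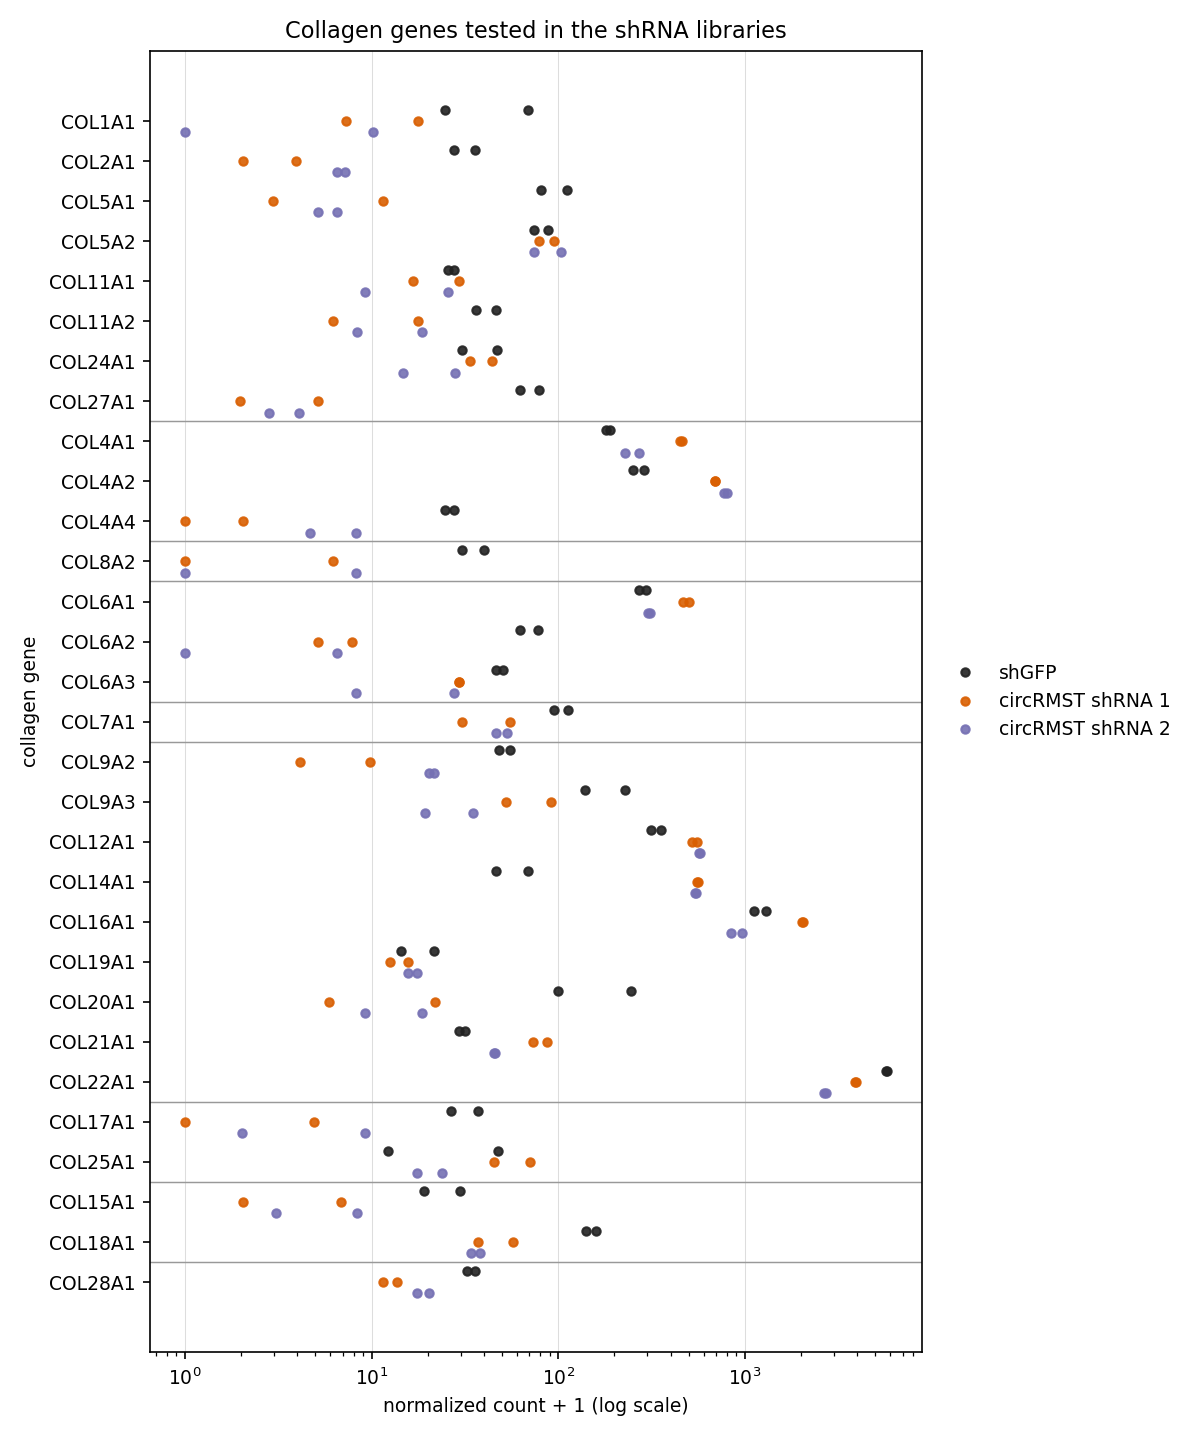
Normalized count plus 1 (log axis) of the 30 collagen genes tested in the shRNA table, 1 point per library, in black for shGFP, orange for circRMST shRNA 1 and violet for circRMST shRNA 2, with lines between collagen classes. COL14A1 and COL4A2 lie to the right of shGFP with both shRNAs, COL27A1 and COL5A1 far to its left, and COL16A1 on either side.

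Of the 30 collagen genes, 17 passed on average and with each shRNA in the same direction, 4 up and 13 down, where 17.4% of all genes met that rule downward. Fewer passed that rule without shGFP replicate 1 or without shGFP replicate 2, fits in which fewer collagen genes were tested. Of the 13 that passed downward, COL27A1, COL6A2, COL5A1, COL8A2, COL17A1, COL2A1 and COL15A1 were tested only because of shGFP, which fixes their direction. Both shRNAs were set against the same 2 shGFP libraries. The shRNAs themselves differed for 6 of 30 collagen genes in limma, where 19.1% of all genes differed. These were COL16A1 (shRNA 1 minus shRNA 2 at 1.16), COL9A3 (1.40), COL4A1 (0.88), COL6A1 (0.65), COL22A1 (0.55) and COL9A2 (-1.72).

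With the SOX2 siRNAs, 3 of 6 tested fibrillar genes rose and 1 fell, while in the other classes 1 gene rose and 9 fell. COL5A1 rose 1.43-fold and COL2A1 3.57-fold, while COL27A1 fell 10.4-fold, COL14A1 2.24-fold and COL4A2 1.76-fold. In limma, 4 of 22 collagen genes rose (27.6% of all genes) and 10 fell (28.7% of all genes). The median change was -0.31, beside 0.01 for all genes. On average and with each siRNA alone, 3 rose and 9 fell, where 18.6% and 19.3% of all genes met that rule.

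COL27A1 was at 33.7, 31.7 and 24.0 in si-control, 0.7 and 8.6 with SOX2 siRNA 1 and 3.5 and 0.0 with SOX2 siRNA 2. In recovered reads these were 27, 26 and 17 against 1, 7, 3 and 0, and every knockdown library was below every control (log2 -3.38, SE 0.61, limma adjusted p = 2.9e-05). COL5A1 was at 2073, 2028 and 1969 in si-control, 3349 and 3235 with siRNA 1 and 2549 and 2531 with siRNA 2. It rose without overlap by 0.52 (SE 0.04, limma adjusted p = 8.1e-12), more with siRNA 1 than with siRNA 2. COL5A2 rose by 0.64 on average, from 30.0, 26.8 and 36.6 to 39.9, 40.6, 57.2 and 60.4 (limma adjusted p = 0.0069), although siRNA 1 alone did not pass (limma adjusted p = 0.190). COL2A1 was at 5.0, 2.4 and 8.5 in si-control and at 12.8, 20.9, 19.9 and 28.2 with the SOX2 siRNAs (log2 1.84, SE 0.45, limma adjusted p = 0.00099). Its control mean was under 10, so it was tested through the libraries in which it was high.

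COL14A1 was at 202, 213 and 245 in si-control, 91.1 and 75.1 with siRNA 1 and 120 and 110 with siRNA 2, and fell by 1.16 (SE 0.12, limma adjusted p = 4.5e-09). COL9A3 was at 48.7, 51.2 and 39.5 against 17.1, 22.2, 12.8 and 20.1, and fell by 1.33 (SE 0.24, limma adjusted p = 3.3e-05). Neither overlapped its controls. COL16A1 was at 1206, 1175 and 1175 in si-control and at 1328 to 1507 with the SOX2 siRNAs, a small rise of 0.27 (SE 0.05, limma adjusted p = 1.9e-05). COL12A1 split by reagent: it was at 323, 301 and 306 in si-control, 267 and 264 with siRNA 1 and 431 and 479 with siRNA 2. Only siRNA 2 of the pair passed (0.55, limma adjusted p = 0.00017), and the average did not (0.16).

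Both tested beaded-filament chains fell, where 28.7% of all genes fell. COL6A1 was at 990, 901 and 971 in si-control, 722 and 659 with siRNA 1 and 603 and 599 with siRNA 2, and fell by 0.57 (SE 0.06, limma adjusted p = 3.7e-09). COL6A3 was at 31.2, 25.6 and 33.8 against 8.5, 3.7, 16.3 and 9.4, and fell by 1.71 (limma adjusted p = 0.00016). COL28A1 was at 15.0, 20.7 and 26.8 against 2.8, 2.5, 8.2 and 4.0, and fell by 2.10 (limma adjusted p = 2.5e-05). COL6A3, COL28A1 and COL27A1 each had a mean under 10 with the SOX2 siRNAs and so were tested only through libraries in which they were high.

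COL7A1 fell by 0.38, from 130, 146 and 151 to 99.6, 112, 119 and 105 (limma adjusted p = 0.0064), a call that quantile normalization ended (limma adjusted p = 0.133). COL21A1 fell by 0.69, with a lowest control of 39.9 below the highest knockdown library, 42.9. Its call ended without si-control replicate 3 (limma adjusted p = 0.106), without SOX2 siRNA 2 replicate 1 (0.0795) and with the replicate number as a block (0.101). COL25A1, a transmembrane collagen of neurons, fell by 0.90 on average (limma adjusted p = 0.0227) but with neither siRNA alone. That call ended without si-control replicate 1 or 2 (0.0692 and 0.119), without SOX2 siRNA 1 replicate 1 (0.107) and without SOX2 siRNA 2 replicate 2 (0.0659). COL9A2, not called on average (-0.63), passed without SOX2 siRNA 1 replicate 1 (limma adjusted p = 0.0327) and without SOX2 siRNA 2 replicate 2 (0.0092). The 2 siRNAs differed from each other for 5 of 22 collagen genes in limma, where 18.5% of all genes differed. These were COL11A2 (siRNA 1 minus siRNA 2 at 1.14), COL12A1 (-0.77), COL14A1 (-0.47), COL5A1 (0.37) and COL22A1 (-0.14).

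With the NKX2-1 siRNAs, the collagen genes that passed were nearly all lower. COL25A1 fell 4.28-fold, COL12A1 2.13-fold and COL4A2 and COL4A1 1.76- and 1.62-fold. COL27A1 fell 7.78-fold, but it and COL1A1 had a mean under 10 with the NKX2-1 siRNAs and were tested only through libraries in which they were high. In limma, 1 of 22 collagen genes rose (18.5% of all genes) and 12 fell (21.4% of all genes), with a median change of -0.26 beside 0.00 for all genes. With libraries scaled to equal totals the counts over all genes turned from 3092 higher and 3592 lower to 4225 and 2643, and the collagen median was -0.20. On average and with each siRNA alone, 7 fell and none rose, where 10.2% and 8.88% of all genes met that rule.

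COL27A1 was at 0.9 and 3.7 with NKX2-1 siRNA 1 and 4.5 and 3.7 with NKX2-1 siRNA 2, or 1, 9, 4 and 3 reads, below each of the 3 control values given above (log2 -2.96, SE 0.61, limma adjusted p = 0.00027). COL25A1 was at 46.2, 56.1 and 33.8 in si-control, 14.2 and 14.7 with siRNA 1 and 3.4 and 11.1 with siRNA 2 (log2 -2.10, SE 0.33, limma adjusted p = 1.1e-05). COL12A1 was at 167 and 140 with siRNA 1 and 124 and 151 with siRNA 2 (log2 -1.09, SE 0.09, limma adjusted p = 2.6e-10). None of these overlapped si-control. COL5A1 was at 1687 and 1758 with siRNA 1 and 1565 and 1544 with siRNA 2, a fall of 0.31 (SE 0.04, limma adjusted p = 3.3e-07). COL16A1 fell by 0.25, to 923, 980, 1014 and 1071 (SE 0.05, limma adjusted p = 9.9e-05).

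Other falls did not pass with both siRNAs. COL14A1 stood at 215 and 202 with siRNA 1, next to the controls, and at 126 and 97.5 with siRNA 2 (average -0.53, limma adjusted p = 0.00094). COL6A1 fell by 0.26 on average, with 796 and 901 with siRNA 1 and 760 and 728 with siRNA 2. COL1A1 fell by 1.37 (23.7, 19.5 and 21.1 in si-control, 2.8, 10.2, 14.7 and 7.4 with the siRNAs, limma adjusted p = 0.0037) and COL6A3 by 1.22 (11.3, 7.8, 12.4 and 21.0 with the siRNAs, limma adjusted p = 0.0071), neither passing with siRNA 2 alone. COL22A1 went to opposite sides of si-control, where it stood at 4327, 4230 and 4289: siRNA 1 gave 3177 and 3405 and siRNA 2 gave 4830 and 4887. The average of -0.10 passed (limma adjusted p = 0.0244) but not without si-control replicate 1 or 3, NKX2-1 siRNA 1 replicate 1 or NKX2-1 siRNA 2 replicate 1 (limma adjusted p = 0.0697 to 0.110). The replicate block (0.102) and equal totals (0.374) ended it as well.

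COL5A2 was the gene that rose, by 0.52 on average (limma adjusted p = 0.0377), and stood at 37.8, 34.8, 60.9 and 49.4. The lowest of these was below the highest control, 36.6. The call ended without si-control replicate 1 or 2, NKX2-1 siRNA 1 replicate 1 or 2, or NKX2-1 siRNA 2 replicate 1 (limma adjusted p = 0.0649 to 0.141). COL18A1, not called on average (0.30), passed without NKX2-1 siRNA 1 replicate 1 (0.43, limma adjusted p = 0.0472). Its values were 73.6 and 108 with siRNA 1 and 134 and 125 with siRNA 2, against 78.6, 97.5 and 86.0. The 2 siRNAs differed from each other for 3 of 22 collagen genes in limma, where 26.5% of all genes differed: COL14A1 (siRNA 1 minus siRNA 2 at 0.90), COL22A1 (-0.56) and COL5A1 (0.15).

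**Figure D3:**
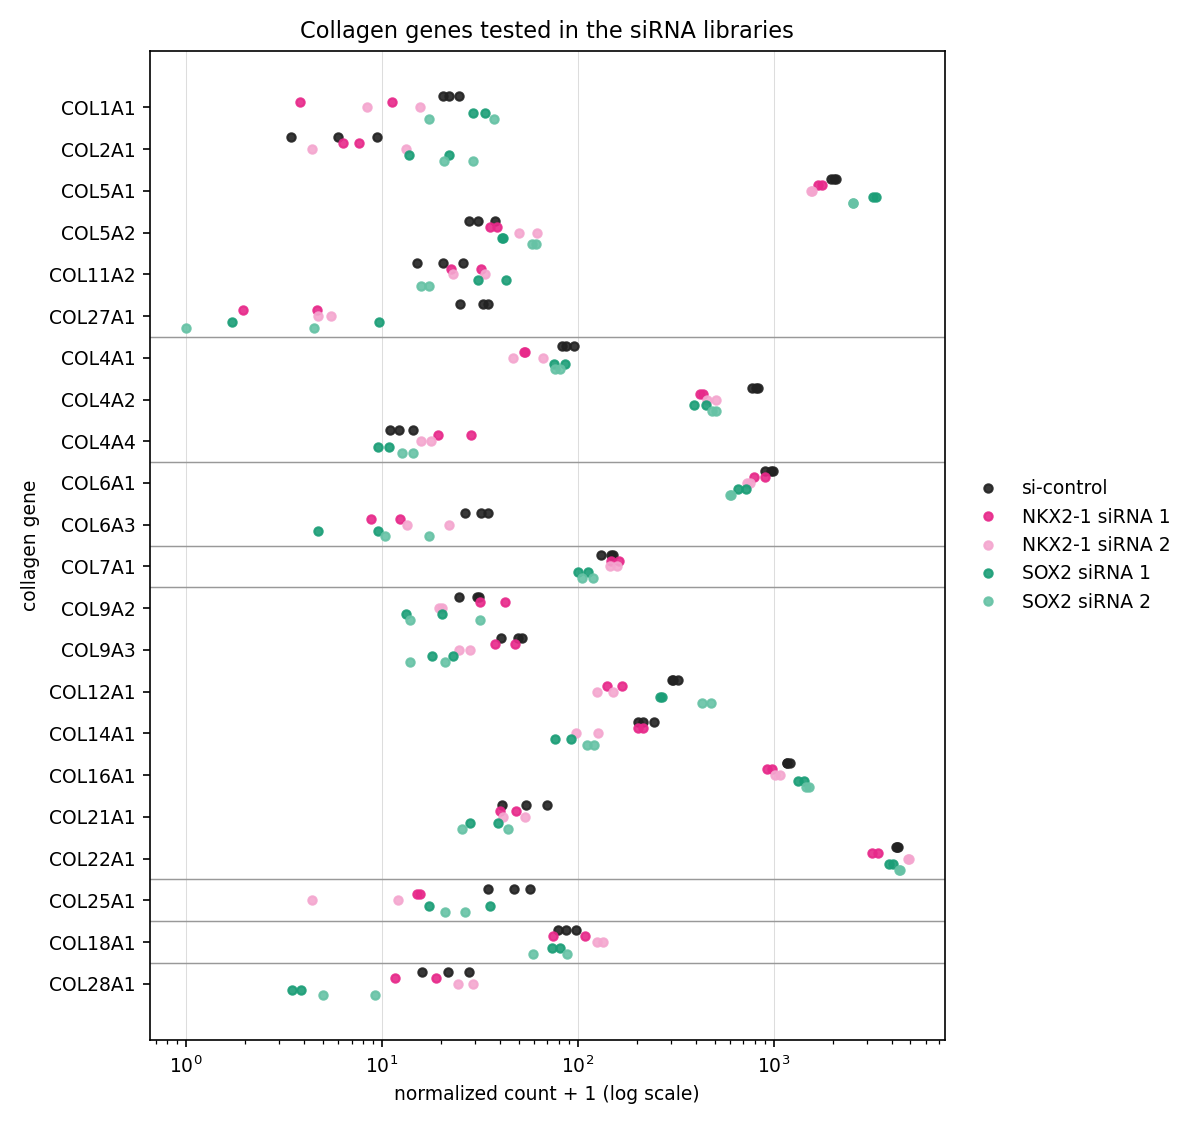
Normalized count plus 1 (log axis) of the 22 collagen genes tested in the siRNA table, 1 point per library, in black for si-control, pink shades for the NKX2-1 siRNAs and green shades for the SOX2 siRNAs. All 8 knockdown libraries of COL27A1 and of COL4A2 lie to the left of si-control, and COL5A1 lies to its right with the SOX2 siRNAs and to its left with the NKX2-1 siRNAs.

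Since both sets of siRNAs were set against the same 3 si-control libraries, they were also compared with each other directly. In limma, 14 of 22 collagen genes differed, 7 higher with the SOX2 siRNAs and 7 lower, where 55.8% of all genes differed. COL5A1 was 1.77-fold higher with the SOX2 siRNAs (log2 0.82, SE 0.04, limma adjusted p = 8.2e-17) and COL12A1 2.39-fold (log2 1.26, SE 0.09, limma adjusted p = 1.3e-12). COL16A1 (0.52), COL4A1 (0.55), COL1A1 (1.70), COL25A1 (1.20) and COL2A1 (1.51) were also higher. COL28A1 was 4.00-fold lower with the SOX2 siRNAs (limma adjusted p = 1.7e-05), and COL4A4, COL9A3, COL14A1, COL18A1, COL7A1 and COL6A1 were lower by 0.30 to 0.84. COL27A1 (-0.42, SE 0.56) and COL4A2 (0.00, SE 0.06) did not pass.

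Across the 22 genes tested in both tables, COL27A1 and COL6A3 were called lower in all 3 knockdowns. The filter on low values fixed that direction for COL27A1 in each comparison and for COL6A3 with the SOX2 siRNAs, and COL6A3 lost its circRMST call without either shGFP library and did not pass with NKX2-1 siRNA 2 alone. COL14A1, COL4A2 and COL6A1 rose on average with the circRMST shRNAs and fell on average with both sets of siRNAs. Of these, COL4A2 passed with each reagent alone. COL14A1 did not pass with NKX2-1 siRNA 1 (-0.07), and COL6A1 passed with neither circRMST shRNA 2 (0.12) nor NKX2-1 siRNA 1 (-0.17). COL5A1 fell with the circRMST shRNAs and the NKX2-1 siRNAs and rose with the SOX2 siRNAs. Its mean was 5.52 with the circRMST shRNAs, so the filter fixed its direction there. COL4A1 and COL12A1 rose with the circRMST shRNAs, fell with the NKX2-1 siRNAs and did not pass with the SOX2 siRNAs. COL11A2, COL18A1, COL4A4 and COL9A2 fell with the circRMST shRNAs and did not pass in the other comparisons. For COL4A4 the filter fixed that direction. The circRMST results come from another table and other controls, and the difference between them and the siRNA results was not tested.

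**Figure D4:**
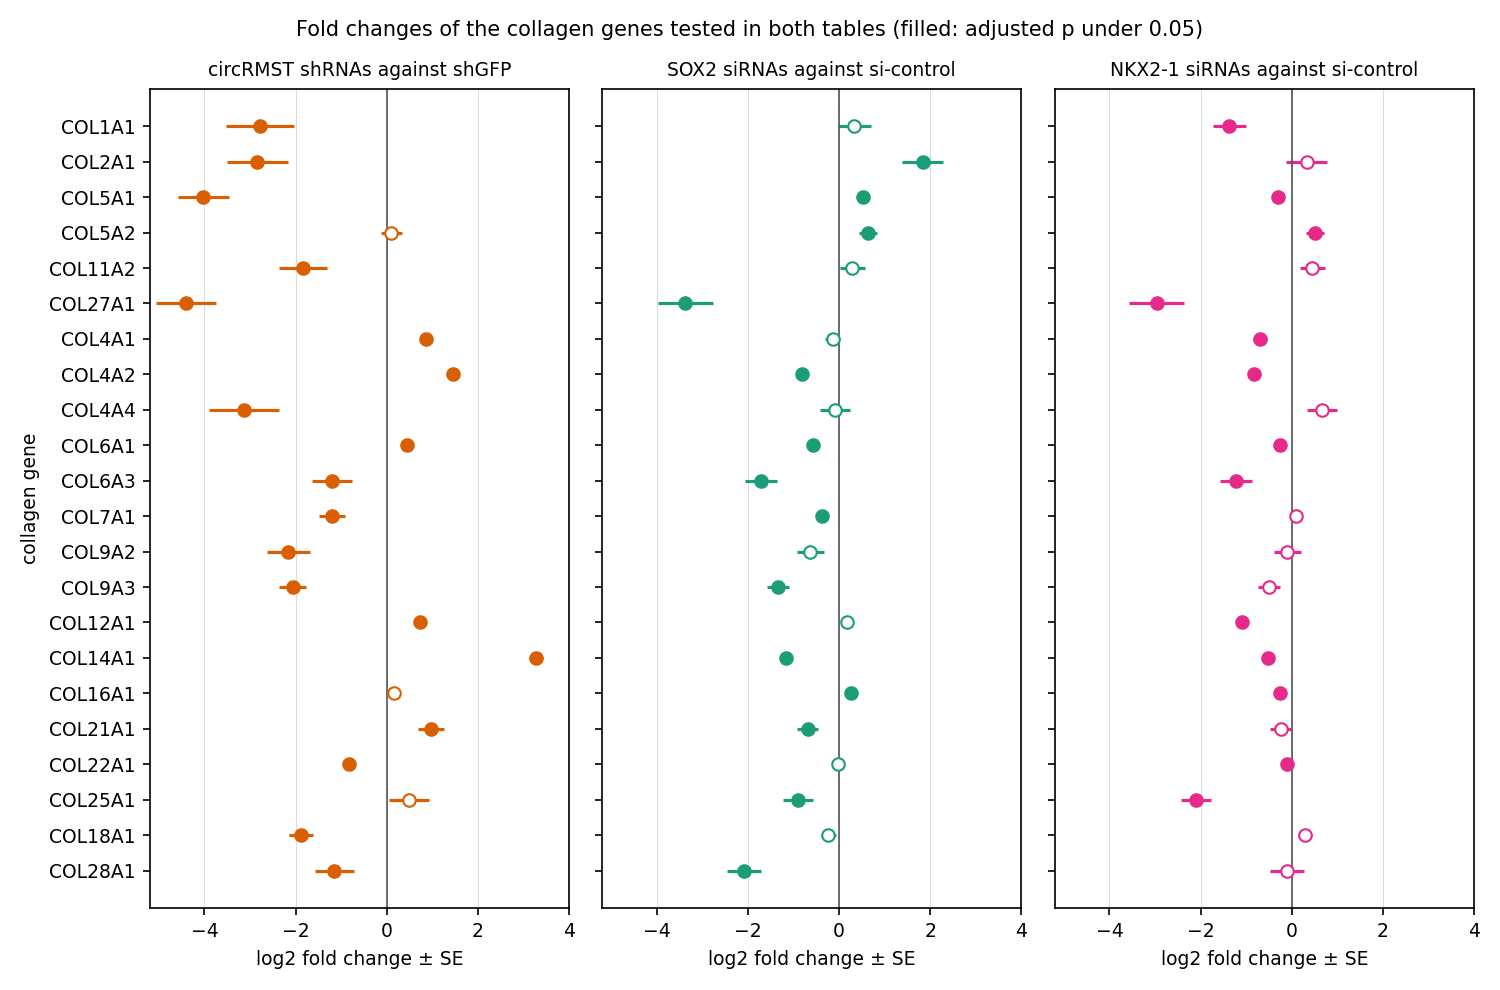
Log2 fold change with its standard error (limma) of the 22 collagen genes tested in both tables, for the circRMST shRNAs, the SOX2 siRNAs and the NKX2-1 siRNAs; filled points passed the adjusted p of 0.05. COL14A1 lies at 3.28, -1.16 and -0.53 in the 3 panels and COL27A1 at -4.41, -3.38 and -2.96.

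COL4A1 and COL4A2, the head-to-head pair whose gap is printed above, encode the chains that form the common type IV trimer. In shGFP, COL4A1 was at 189 and 178 and COL4A2 at 286 and 252. With shRNA 1 COL4A1 was at 446 and 460 and COL4A2 at 688 and 687, and with shRNA 2 they were at 268 and 226 and at 802 and 769. Both rose with both shRNAs (COL4A2 1.45, SE 0.10, limma adjusted p = 1.2e-11; COL4A1 0.86, SE 0.13, limma adjusted p = 5.3e-06), but COL4A1 rose less with shRNA 2 (0.42 against 1.30). The ratio of COL4A2 to COL4A1 counts was 1.51 and 1.41 in shGFP, 1.54 and 1.49 with shRNA 1 and 2.99 and 3.40 with shRNA 2.

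In the siRNA table COL4A1 was at 86.1, 81.6 and 94.4 in si-control and COL4A2 at 771, 810 and 827. With the NKX2-1 siRNAs both fell, COL4A1 to 52.9, 52.3, 65.4 and 45.7 (-0.69, SE 0.16, limma adjusted p = 0.00094) and COL4A2 to 420, 437, 458 and 507 (-0.82, SE 0.07, limma adjusted p = 8.3e-11). With the SOX2 siRNAs COL4A2 fell to 451, 393, 504 and 482 (-0.82, SE 0.07, limma adjusted p = 3.4e-11), while COL4A1 (74.7, 85.0, 75.9 and 80.5) overlapped its controls (-0.14, limma adjusted p = 0.465). The ratio was 8.76 to 9.93 in si-control, 7.00 to 11.1 with the NKX2-1 siRNAs and 4.62 to 6.65 with the SOX2 siRNAs, where it did not overlap the controls. COL4A2 overlaps antisense genes in RefSeq, and whether counting used strand was not given in the sources used here.

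**Figure D5:**
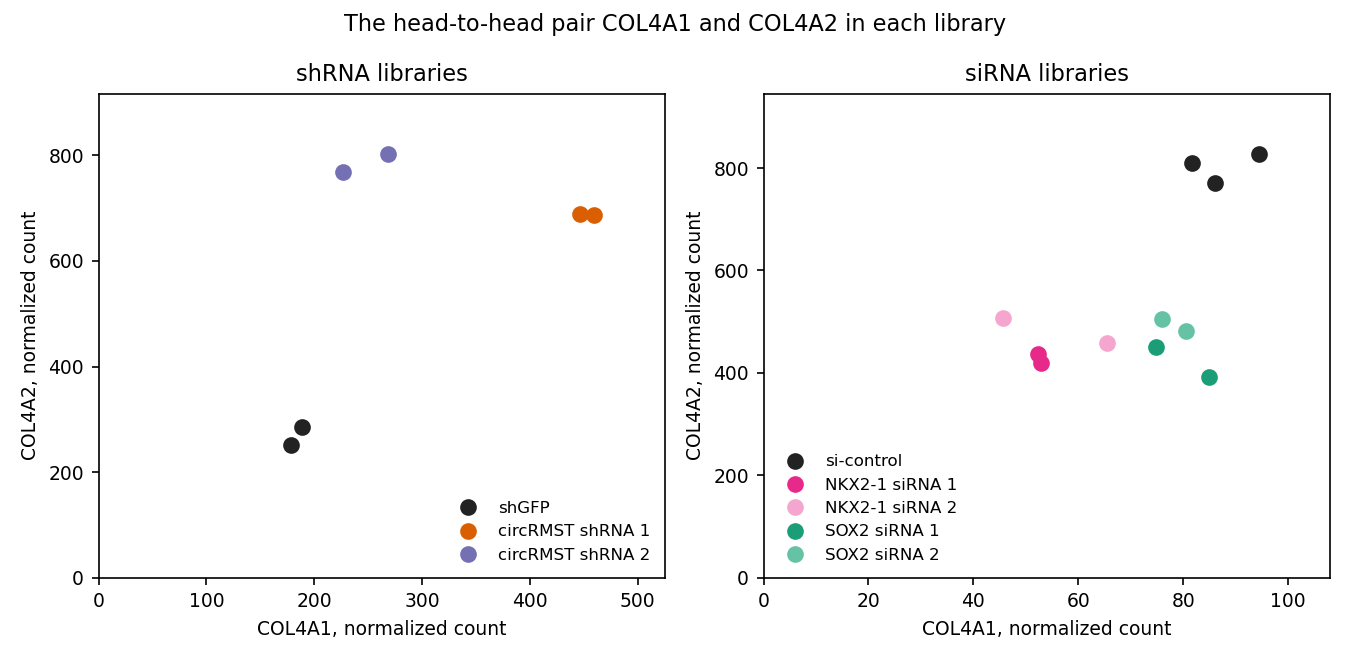
Normalized counts of COL4A1 (horizontal) and COL4A2 (vertical) in each shRNA library (left) and each siRNA library (right), with both axes from 0. The shRNA 2 libraries lie above the others at 769 and 802 of COL4A2, and the SOX2 siRNA libraries lie below si-control at similar COL4A1.

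The second head-to-head pair, COL4A3 and COL4A4 with 135 bases between them, was tested for COL4A4 only, and the third, COL4A5 and COL4A6, in neither table. COL4A4, a chain of the kidney basement membrane, was at 26.7 and 23.7 in shGFP and at 1.0, 0.0, 3.7 and 7.2 with the circRMST shRNAs. It fell by 3.14 (limma adjusted p = 0.0015), with shGFP values inside the silent-gene limit. Its mean with the circRMST shRNAs was 2.99, so it was tested only because of shGFP, which fixes its direction. With shRNA 2 alone it did not pass (limma adjusted p = 0.0598). In the siRNA table it was at 10.0, 13.4 and 11.3 in si-control, 8.5 to 13.4 with the SOX2 siRNAs and 14.8 to 27.4 with the NKX2-1 siRNAs. The last did not overlap the controls, but did not pass (0.67, limma adjusted p = 0.103).

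Genes that fold, process, bind and degrade collagen are given for context, and their counts carry no test of the list. They stand beside the share of all genes that rose and fell, which was 27.8% and 25.9% with the circRMST shRNAs, 27.6% and 28.7% with the SOX2 siRNAs and 18.5% and 21.4% with the NKX2-1 siRNAs. Of 18 tested enzymes and chaperones of collagen modification and folding, 14 rose and 2 fell with the circRMST shRNAs (median 0.44). The prolyl hydroxylase subunits P4HA3 (1.23) and P4HA2 (0.93) and the lysyl hydroxylase PLOD1 (0.84) rose most, and CRTAP and FKBP14 fell. With the SOX2 siRNAs none of 17 rose and 13 fell (median -0.29), led by P4HA1 (-1.18), P4HA3 (-1.05) and P4HA2 (-1.01). With the NKX2-1 siRNAs 2 rose and 8 fell on average (median -0.16), P4HA1 by 0.47, PLOD1 by 0.32 and PLOD3 by 0.29. These medians compare with 0.00, 0.01 and 0.00 for all genes in the same comparisons. The NKX2-1 siRNAs were unlike on this list. With siRNA 1 alone 1 rose and 12 fell, where 2921 of all 16750 genes rose and 3607 fell. With siRNA 2 alone 5 rose and 3 fell, where 2684 of all 16750 genes rose and 2928 fell. In the direct contrast of the 2 siRNAs 12 of 17 were lower with siRNA 1 and 1 was higher, where 26.5% of all genes differed.

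Of the processing and cross-linking genes, 2 of 11 rose and 3 fell with the circRMST shRNAs, among them the procollagen protease ADAMTS2 (-4.23) and the lysyl oxidase LOXL4 (0.71). LOXL1, another lysyl oxidase, fell there from 52.9 to 25.0. ADAMTS2 fell from 70.6 in shGFP to 3.21, so it was tested only because of shGFP, which fixes its direction. LOXL4 fell with the SOX2 siRNAs (-1.25) and with the NKX2-1 siRNAs (-1.35). In both, 1 of 10 rose and 4 fell. ADAMTS3 rose with the SOX2 siRNAs (2.06) and BMP1 fell (-0.60), and LOXL2 (-1.42) and TLL2 (-1.42) fell with the NKX2-1 siRNAs. Among collagen receptors, 2 of 9 rose and 2 fell with the circRMST shRNAs. The receptor kinase DDR2 rose there (2.03), and the uptake receptor MRC2 (-2.62) and the integrin chain ITGA10 (-1.99) fell, from shGFP means of 79.8 and 34.3. That of ITGA10 was within the silent-gene limit of 43.2, and the filter on low values may have fixed its direction. With the SOX2 siRNAs 2 of 8 rose and 5 fell, led by OSCAR (-2.05), ITGA2 (1.66) and ITGA11 (-1.46). With the NKX2-1 siRNAs 1 of 8 rose and 2 fell, ITGA11 by 0.91 and OSCAR by 0.85.

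Of the degradation genes, 3 of 6 rose and 2 fell with the circRMST shRNAs. The metalloproteases MMP9 (-2.95) and MMP14 (-2.09) fell there and MMP13 (1.29) rose, and the shGFP means of these 3, 23.8, 38.5 and 10.9, were within the silent-gene limit. From such low levels, the filter on low values may have fixed the direction of MMP9 and MMP14. All 4 tested fell with the SOX2 siRNAs, MMP14 by 0.81, and 2 of 4 fell with the NKX2-1 siRNAs, TIMP2 by 0.50 and TIMP1 by 0.28. Of 12 laminins and other basement membrane partners of type IV collagen, 5 rose and 5 fell with the circRMST shRNAs, 1 rose and 10 fell with the SOX2 siRNAs, and 3 rose and 5 fell with the NKX2-1 siRNAs. The perlecan gene HSPG2 fell by 2.62 with the circRMST shRNAs and by 1.78 with the SOX2 siRNAs. The laminin chains LAMA3 (2.02) and LAMB1 (1.32) rose with the circRMST shRNAs.

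Markers of cell types moved with these comparisons too, and their counts carry no test of the lists. Of all genes, 27.8% rose and 25.9% fell with the circRMST shRNAs. With the SOX2 siRNAs 27.6% rose and 28.7% fell, and with the NKX2-1 siRNAs 18.5% and 21.4%. Of 8 neuroendocrine markers 6 fell and 2 rose with the circRMST shRNAs. Their summed level was 73254 to 77578 in shGFP, 39767 to 44963 with the circRMST shRNAs, 69259 to 70022 in si-control, 73997 to 77304 with the SOX2 siRNAs and 70430 to 77138 with the NKX2-1 siRNAs. NCAM1, counted as a fall with the circRMST shRNAs, averaged 6465 in shGFP, 7087 with shRNA 1 and 4946 with shRNA 2. With shRNA 1 alone 3 of the 8 rose and 5 fell, where 5094 of all 19068 genes rose and 4622 fell. Of the 8, 4 rose and 3 fell with the SOX2 siRNAs, where GRP fell from 4713 to 1929 and 2028 with siRNA 1 and siRNA 2. With the NKX2-1 siRNAs 3 rose and 2 fell. GRP averaged 4154 with NKX2-1 siRNA 1 and 6491 with NKX2-1 siRNA 2, on opposite sides of si-control. Of 7 tested fibroblast markers 1 rose and 4 fell with the circRMST shRNAs. LUM, the one that rose, averaged 110 in shGFP, 772 in the shRNA 1 libraries and 402 in those of shRNA 2. DCN, POSTN and FBLN1 averaged 27.2, 18.2 and 49.3 in shGFP and under 10 with each shRNA. They were tested only because of shGFP, which fixes their direction. The summed fibroblast level was 1247 to 1391 in shGFP, 1466 to 1573 with shRNA 1, 1089 to 1163 with shRNA 2, 774 to 860 in si-control, 616 to 829 with the SOX2 siRNAs and 708 to 848 with the NKX2-1 siRNAs. Of 5 tested in the siRNA table, LUM and PDGFRA rose and FAP and TAGLN fell with the SOX2 siRNAs, and PDGFRA rose and FAP fell with the NKX2-1 siRNAs. FAP averaged 406 in si-control, 65.1 and 66.6 with SOX2 siRNAs 1 and 2 and 175 and 297 with NKX2-1 siRNAs 1 and 2. In the same order PDGFRA averaged 54.5, 142, 242, 142 and 125, and LUM 75.7, 190, 230, 68.1 and 100.3. Of the 5 endothelial markers PECAM1 alone was tested in the shRNA table, where it fell by 1.20 on average, and KDR was at 0 in si-control. PECAM1 also fell with the SOX2 siRNAs (-1.96). With the NKX2-1 siRNAs it was at 333 in si-control, 134 with siRNA 1 and 409 with siRNA 2, on opposite sides of the control, with an average of -0.51. Alone, siRNA 1 passed (-1.31) and siRNA 2 did not (0.29). The summed endothelial level was 416 to 418 in shGFP, 155 to 185 with the circRMST shRNAs, 344 to 356 in si-control, 75.1 to 137 with the SOX2 siRNAs, 147 to 159 with NKX2-1 siRNA 1 and 436 to 446 with NKX2-1 siRNA 2. The part of these markers in the collagen results was not tested.

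The tested genes whose log2 pattern over libraries was most like that of COL27A1 were MVP, SLC6A19, RPS28P7, NRXN3 and SUPT4H1 over the 6 shRNA libraries (Pearson r of 0.997 to 0.999). Over the 11 siRNA libraries they were ERG, OXR1, S100P, CALCOCO2 and TANC1 (0.908 to 0.936). Libraries of a group share their treatment, so these values describe the pattern only.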

How the data were processed

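Deposited values were a signal per gene and library, counts normalized by the authors with DESeq2 after cutadapt 2.5 and STAR 2.5.2b on hg38, per the submitters' processing notes. The sources used here give no DESeq2 version, annotation, counting tool or strand setting, so overlapping genes (21 of the 30 tested collagen genes overlap another gene in RefSeq) and close paralogs are uncertain. Every value was a whole multiple of 1 read (100% within 0.05 reads), which gave recovered reads. Non-human features (55 and 38) and pseudoautosomal copies on chromosome Y (7 and 11) were left out. ChIP-seq (10 samples) was not analysed here.

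The tests used limma 3.58.1 in R 4.3.3 on log2(normalized count + 1), with all libraries of a table in 1 fit, a mean per group, a trended prior, two-sided tests and Benjamini-Hochberg adjustment over all genes whose mean reached 10. Both reagents of a knockdown were averaged and their control subtracted. The method was tested on simulated data. Alternatives were other pseudocounts, filters and scalings, the replicate number as a block, only the compared groups, edgeR 4.0.16 and DESeq2 1.42.0 on recovered reads, and each library left out.

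Members, class, pathway and marker lists were chosen with earlier results of these data known. Values in every library were given for the members passing with each reagent (up to 10 a knockdown by size), type IV pairs and chains of shared trimers, and the 3 largest changes of a pathway list were named, apart from some that are not reported here. Other members named were chosen after their values were seen. No transcript lengths were used, so levels of different genes were not compared.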

Additional observations from a re-analysis of the deposited data

Results flagged for a closer look

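The 2 reagents of a knockdown differed from each other, by the direct limma contrast, for several collagen genes. Between circRMST shRNA 1 and shRNA 2 (log2, first minus second) the values were 1.16 for COL16A1, -1.72 for COL9A2, 0.55 for COL22A1, 0.88 for COL4A1, 1.40 for COL9A3 and 0.65 for COL6A1. Of these, COL16A1 was above shGFP with shRNA 1 and below it with shRNA 2. Between SOX2 siRNA 1 and siRNA 2 the values were 1.14 for COL11A2, -0.77 for COL12A1, -0.47 for COL14A1, -0.14 for COL22A1 and 0.37 for COL5A1, 5 of 22 collagen genes where 18.5% of all genes differed. Between NKX2-1 siRNA 1 and siRNA 2 they were 0.90 for COL14A1, -0.56 for COL22A1 and 0.15 for COL5A1, 3 of 22 where 26.5% of all genes differed. COL22A1 differed between the reagents in all 3 knockdowns.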

How the results depend on the processing

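Over 1244 alternatives of 74 collagen gene results, 1191 were counted as unchanged, 45 lost a call, 8 gained one and 0 reversed. Reversed means a changed sign with a call in either fit. The 1191 include results called in neither fit, whose sign was not compared, and any called result without an adjusted p in the alternative. COL25A1 with the circRMST shRNAs, for example, ranged from -0.48 to 1.47 over the libraries left out. With a mean of at least 50, fewer genes were tested: 5 collagen genes fell and 9 passed with each shRNA; with the SOX2 siRNAs 2 rose, 4 fell and 6 passed with each siRNA; with the NKX2-1 siRNAs 0 rose; and 8 differed between SOX2 and NKX2-1 siRNAs. The count rising with the NKX2-1 siRNAs was also 0 with only the compared groups in the fit and with DESeq2, where COL5A2 kept its size (0.52 and 0.53, from 0.52) but not its call (adjusted p = 0.0505 and 0.124); the cause was not tested. Leaving out 1 library gave 9 to 20 falling collagen genes and 10 to 19 passing with each shRNA for circRMST, and 0 to 1 rising for NKX2-1. DESeq2 gave COL8A2, COL1A1, COL28A1 and COL6A3 circRMST changes of -3.50, -2.67, -1.22 and -1.13, near those reported, but no call (adjusted p = 0.166, 0.104, 0.0545 and 0.0566), while edgeR changed no call of a single gene. Without a filter on low values 7 calls were lost, and quantile normalization ended 4 and added 2, COL12A1 and COL22A1 with the SOX2 siRNAs (0.27 and -0.09). Same-numbered libraries did not deviate together (correlations -0.109 to 0.047), and the replicate block, with 18 collagen genes falling and 6 rising for circRMST, ended only the calls of COL21A1 (SOX2) and COL22A1 (NKX2-1). With 1 to 10 reads in many libraries, depth limits COL27A1, COL6A2 and other low genes.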

Other observations

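Some collagen genes stood at very different levels in the 2 control groups, which were made with different kits and normalized separately, so the values are set side by side without a test. COL5A1 averaged 94.8 ± 21.4 (SD, n = 2) in shGFP and 2023 ± 52.1 (SD, n = 3) in si-control, and its fall with the circRMST shRNAs, to 5.52 ± 3.61 (SD, n = 4), was from that lower level. COL14A1 averaged 56.7 and 220, COL6A1 282 and 954 and COL9A3 182 and 46.4. COL22A1 (5702 and 4282), COL16A1 (1204 and 1185) and COL12A1 (332 and 310) stood close in both. COL20A1, at 246 and 98.7 in shGFP, had 30 reads over the 11 siRNA libraries.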
